A study of Oryza sativa with 25 samples.

Results

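Rice callus that had spent 4 days on regeneration medium was compared with callus that had spent 2 days there. The comparison rests on 6 of the 25 arrays of the series, 3 arrays for each time, taken by sample title, and probe sets for control RNAs were left out. The callus had been raised from seeds for 3 weeks on MS medium at 30 °C, and both groups were then moved to the regeneration medium and collected on the stated day. Both groups therefore share the 3 weeks of callus growth and the move to new medium, and they differ by 2 further days on that medium, so time on the medium and age of the culture cannot be told apart. The labels give neither the cultivar nor the hormones in the medium, and the whole callus was collected, with no sorting of its cells. The other arrays measured growing callus, callus after 6 and 8 days, root, shoot and young leaf. They were used for the filter, the normalisation and the estimate of the spread, and are quoted where they show what a gene's level looked like elsewhere.

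Callus is a mass of dividing plant cells that has lost the pattern of an organ. On regeneration medium, where the balance of cytokinin and auxin differs from that of callus medium, some of its cells form shoot meristems, and leaves then grow from the flanks of those meristems. KNOX homeobox genes are known for marking shoot meristems, and YABBY, TCP and GRF transcription factors for acting in the leaves and other lateral organs that form beside them. Stress and defence genes are known to respond to the wounding and handling that culture involves.

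Values are deposited intensities, on a scale where the 75th percentile of each array is 1, and array medians ran from 0.220 to 0.355 over the series. A level near or below those medians may be largely background. Log2 changes come from a limma fit on quantile-normalised log2 values of all 25 arrays, and p-values and adjusted p-values (Benjamini-Hochberg, over 37218 probe sets) are limma's throughout. A probe set was called where its adjusted p lay under 0.05 and its fold was at least 2. The labels name the replicates as biological, and 3 arrays a group limit the precision.

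On the log2 scale the correlation between arrays ran from 0.978 to 0.986 within the 2 groups and from 0.968 to 0.988 between them. Replicate 2 of both groups, like replicate 2 of growing callus, is labelled as carrying too much poly(A) control RNA, and the control probe sets bore this out, with medians of 233 to 244 on those arrays against 0.230 to 1.83 on the others. The ratio of 3′ to 5′ actin signal, a measure of RNA quality, was 11.5 to 12.4 at 2 days and 11.4 to 13.2 at 4 days. The arrays held little signal from the leaf blade and root markers. The summed level of 5 leaf blade markers was 1.62 to 1.74 at 2 days and 1.55 to 2.23 at 4 days. In young leaf it was 392 to 527. That of 2 root markers was 1.46 to 1.55 and 1.69 to 1.86, against 168 to 184 in root. The 2 crown root meristem markers, QHB and OsWOX11, went the other way. They summed to 5.09 to 7.68 and 6.53 to 7.79, against 1.06 to 1.72 in root. In growing callus the sum was already 4.63 to 7.72. From 2 to 4 days the mean of QHB went from 2.86 to 2.45 and that of OsWOX11 from 3.93 to 4.62. Whether crown root meristem cells were present was not tested. The 2 shoot meristem markers, OSH1 and OSH71, summed to 0.354 to 0.425 and 0.421 to 0.54, against 11.7 to 16.6 in shoot. The 8 seed storage markers summed to 1.69 to 1.90 and 1.53 to 1.94, near the 1.56 to 1.69 of shoot. The alpha-amylases AMY3D, AMY3E and AMY1.1, used as markers of aleurone and scutellum, summed to 64.2 to 135 and 126 to 155, against at most 1.43 in the 3 organs. Growing callus already summed to 55.2 to 197, and whether cells of aleurone or scutellum were present was not tested.

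Between 2 and 4 days 2 probe sets were called, which is 0.00537% of those tested, and both were higher at 4 days. They belonged to OsYAB2 (LOC4333584), a YABBY transcription factor, and to LOC4330898, a gene known here only by its locus number. No probe set was called lower. At an unadjusted p under 0.05 there were 607 higher (1.63%) and 528 lower (1.42%), together 3.05% of those tested. That is less than the share of 0.05 that this threshold gives on average where nothing changes. These counts, here and below, are therefore no sign of change by themselves. At a fold of at least 2, whatever the p, there were 45 higher (0.121%) and 58 lower (0.156%). The median log2 change was 0.00, and 98.4% of probe sets lay within 1.5-fold of no change. The 95% interval of a typical probe set reached 0.38 to either side on the log2 scale, or 1.3-fold. Most changes below that size were not detectable with these arrays, and a call asked for far more. Some changes above 2-fold were left uncalled, such as that of PCF7 described below (2.43-fold, limma's adjusted p = 0.9999). The small number of calls therefore does not show that changes above 1.3-fold were absent.

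**Figure D1:**
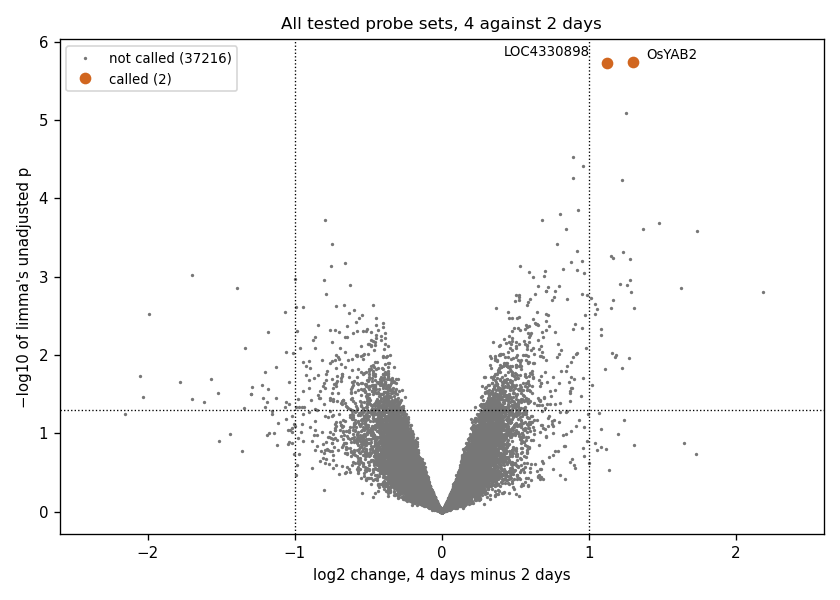
Log2 change from 2 to 4 days (horizontal axis) against −log10 of limma's unadjusted p (vertical axis) for the 37218 probe sets tested, with dotted lines at a fold of 2 either way and at an unadjusted p of 0.05. The 2 orange points, OsYAB2 and LOC4330898, are the called probe sets and have the smallest p-values.

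OsYAB2 had deposited levels of 0.282, 0.432 and 0.338 on the 3 arrays of 2 days and of 1.13, 0.818 and 0.791 on those of 4 days. All 3 arrays of 4 days stood above all 3 of 2 days. The mean went from 0.351 ± 0.0759 to 0.912 ± 0.188 (SD, n = 3 each), a rise of 1.303 on the log2 scale (SE 0.204, 95% interval 0.88 to 1.73, limma's adjusted p = 0.0341). The level at 2 days lay near the array median, so the size of the change depends on the pseudocount and was 1.09 with a larger one. Across the series the mean was 0.119 ± 0.0390 in growing callus, 1.45 ± 0.374 at 6 days and 1.85 ± 0.268 at 8 days (SD, n = 3 each). It was 0.151 ± 0.0407 in root, 5.92 ± 0.774 in shoot (SD, n = 3 each) and 1.38 ± 0.193 in young leaf (SD, n = 4). The 4 day level thus stood between the means of root and young leaf, and all 3 shoot arrays were above all callus arrays.

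LOC4330898 had levels of 0.558, 0.541 and 0.622 at 2 days and of 1.54, 1.31 and 1.09 at 4 days, again with no overlap. The mean went from 0.574 ± 0.0425 to 1.31 ± 0.227 (SD, n = 3 each), a rise of 1.12 on the log2 scale (SE 0.176, 95% interval 0.76 to 1.49, limma's adjusted p = 0.0341). Its mean was 0.167 ± 0.0273 in growing callus, 1.93 ± 0.458 at 6 days and 2.36 ± 0.321 at 8 days, with 0.628 ± 0.0146 in root and 2.37 ± 0.559 in shoot (SD, n = 3 each). Young leaf had the highest mean, 4.87 ± 0.690 (SD, n = 4).

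Both calls lay close to the threshold and rested on the spread estimated from all arrays. With the 6 arrays of 2 and 4 days alone, 0 probe sets were called and the adjusted p of both genes was 0.398, and with the 15 callus arrays it was 0.325. Without quantile normalisation it was 0.0691 and 0 were called. With the replicate number as a block it was 0.0965 and 0 were called. Over all alternatives it ran from 0.0185 to 0.678 for each. Both calls were also lost without replicate 1 of either group, without replicate 3 of 2 days or without replicate 2 of 4 days, and LOC4330898 alone lost its call without replicate 2 of 2 days (adjusted p = 0.273) and OsYAB2 alone without replicate 3 of 4 days (0.0734). Both were lost as well without replicate 1 of 6 days (0.0595) or replicate 1 of 8 days (0.0545). Those arrays lie outside the 2 groups and enter the spread, the filter and the normalisation. Without the 3 arrays with excess poly(A) control, replicate 2 of both times included, 0 were called, with adjusted p-values of 0.0755 for OsYAB2 and 0.636 for LOC4330898. The size of the change moved little: OsYAB2 stayed between 1.09 and 1.52 and LOC4330898 between 0.998 and 1.24 on the log2 scale.

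Of 7 YABBY genes on the array 6 were tested, 1 was called higher (OsYAB2) and 0 lower, and the median log2 change was 0.45 against 0.00 over all tested. OsYAB7 (LOC4330130, also named OsYABBY4) read 1.06, 1.12 and 1.21 at 2 days and 2.67, 1.82 and 2.14 at 4 days. The groups did not overlap, as was the case, higher at 4 days, for 3.07% of probe sets tested, but the log2 change of 0.92 (95% interval 0.45 to 1.38) was not called (adjusted p = 0.942). OsYAB3 (LOC4336518, also named OsYABBY5) read 16.1, 21.9 and 9.69 at 2 days and 20.9, 21.8 and 19.3 at 4 days, and its groups overlapped (log2 0.48, 95% interval -0.10 to 1.07). OsYAB5 had a log2 change of 0.41, and OsYAB1 and DL, a carpel and leaf midrib regulator, had -0.21 and -0.12 at levels under 0.30. The list's median rested on few genes: it was 0.21 without replicate 3 of 2 days and 0.70 without replicate 2 of 2 days. Since these are bulk samples, more cells of a type and more RNA per cell cannot be told apart, here or below.

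**Figure D2:**
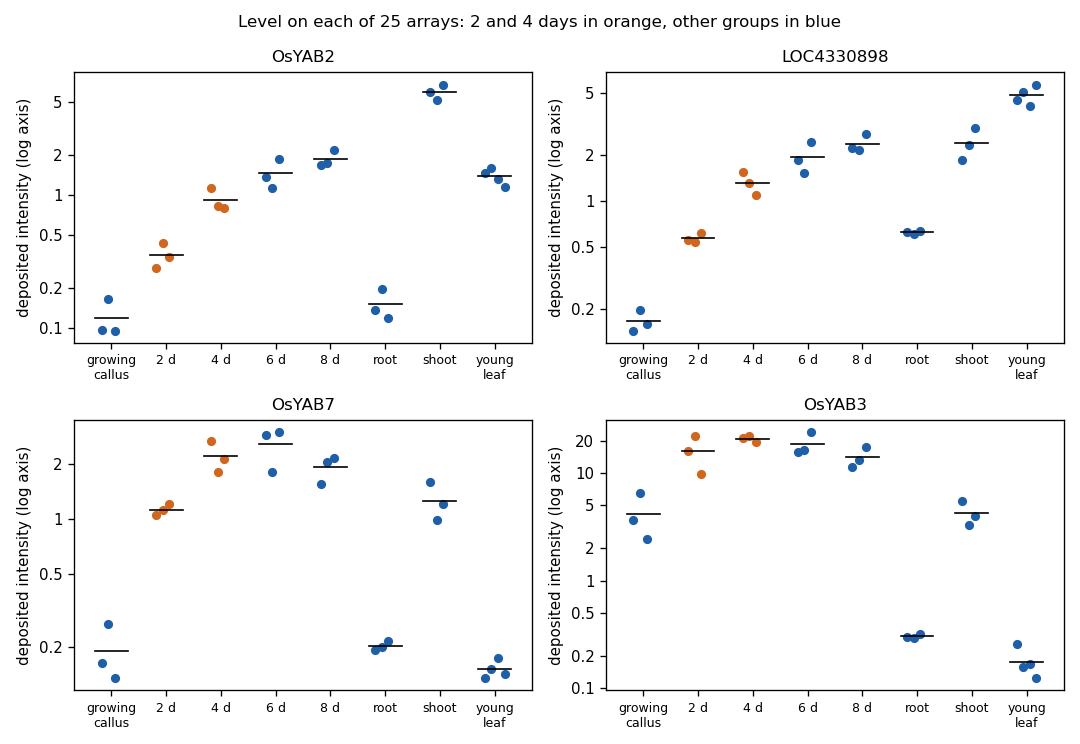
Deposited intensity (log axis, 75th percentile of each array at 1) of OsYAB2, LOC4330898, OsYAB7 and OsYAB3 on each of the 25 arrays by group, with the callus at 2 and 4 days in orange; points are arrays and bars are group means. OsYAB2 and LOC4330898 stand higher at 4 than at 2 days on every array, as does OsYAB7, whose change was not called, while the OsYAB3 groups overlap.

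Other regulators of shoots and lateral organs gave no call. Of 18 TCP and GRF growth regulators 0 were called in either direction, 16 had a log2 change above 0, 3 had an unadjusted p under 0.05 on the higher side and 0 on the lower side, and the median was 0.22. PCF7 (LOC4325137), a TCP factor, read 0.806, 1.08 and 0.685 at 2 days and 2.98, 1.47 and 2.23 at 4 days. Its arrays did not overlap, and its log2 change of 1.28 (95% interval 0.62 to 1.95) was not called (unadjusted p = 0.000599, adjusted p = 0.9999). PCF5, of the same family, had a log2 change of 0.69 (95% interval 0.18 to 1.20).

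Of 9 KNOX and BELL homeobox genes 0 were called, 8 lay above 0 and the median was 0.18, with 1 at an unadjusted p under 0.05. That gene was OSH1, the rice gene that marks shoot meristem cells, at 0.182, 0.152 and 0.223 at 2 days and 0.405, 0.244 and 0.399 at 4 days. Its groups did not overlap (log2 0.88, 95% interval 0.21 to 1.55, unadjusted p = 0.0122), but its 2 day levels lay below the array medians and its 4 day levels near them. A separate probe set of the gene gave 0.90, at means of 0.104 and 0.197 that lay below the array medians. OSH6 had a log2 change of 0.36 and OSH71, the other shoot meristem marker, 0.08. OsER2, a receptor kinase of the ERECTA family, is not on this list and was picked after the values were seen, as described below. It read 0.493, 0.380 and 0.362 at 2 days and 0.837, 0.627 and 0.738 at 4 days. Its log2 change of 0.80 (95% interval 0.35 to 1.25) was not called.

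Of 7 WOX homeobox genes, known for roles in stem cell niches, 0 were called and 0 had an unadjusted p under 0.05 (median -0.11); OsWOX7 had the smallest p, with a log2 change of -0.51, and OsWOX10 followed at 0.26. The 16 HD-Zip genes had 0 called and 0 at an unadjusted p under 0.05 (median 0.07), led by HOX33 (0.34) and OsHB1 (0.23), both of the class III group that acts in leaf polarity. Of 20 MADS-box genes tested, of 31 on the array, 0 were called, 2 higher and 0 lower had an unadjusted p under 0.05, and the median was 0.10. OsMADS16 (LOC4342047), which acts in petal and stamen identity, had the smallest p among them. It read 0.307, 0.263 and 0.199 at 2 days and 0.623, 0.401 and 0.441 at 4 days, a log2 change of 0.89 (95% interval 0.52 to 1.27, adjusted p = 0.304) that was 0.69 with the larger pseudocount. OsMADS2, of the same floral class, had a log2 change of 0.42.

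**Figure D3:**
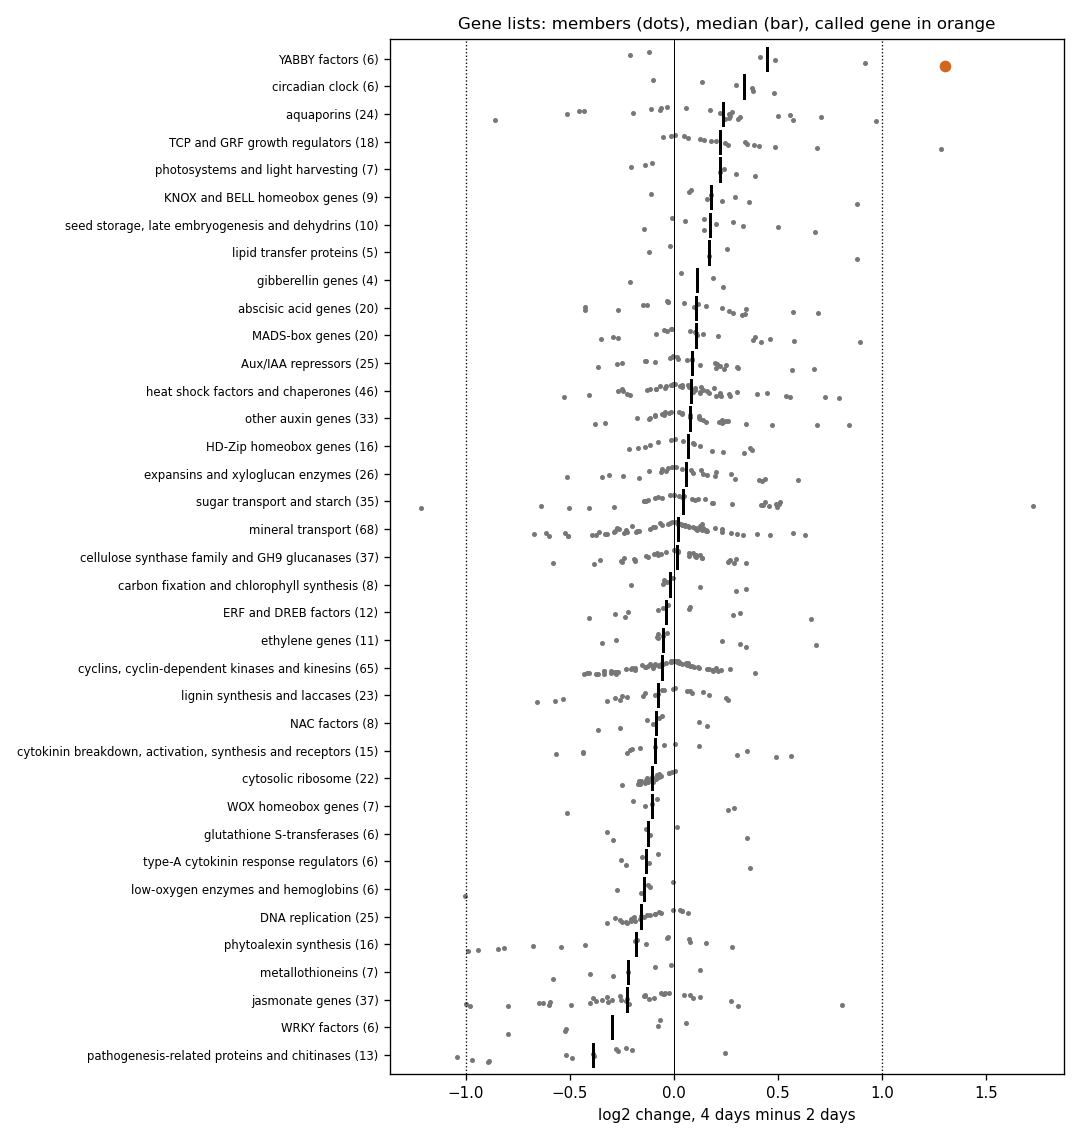
Log2 change from 2 to 4 days (horizontal axis) of each tested member (dots) of the 37 gene lists, with each list's median (bar), the number tested in parentheses and dotted lines at a fold of 2 either way. The medians ran from -0.39 for pathogenesis-related proteins and chitinases to 0.45 for YABBY factors, and 1 gene, OsYAB2 (orange), was called.

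Over all 37 lists 707 genes were tested, of which 1 was called higher and 0 lower. At an unadjusted p under 0.05 there were 27 higher and 17 lower, and the deposited values of the groups did not overlap for 42 higher and 45 lower, beside 3.07% and 4.68% of all probe sets tested. The list medians lay above 0 for 19 lists and below for 18.

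No cytokinin gene was called. Type-A response regulators are rapidly induced by cytokinin and dampen its signal. All 6 were tested, 0 were called, 0 had an unadjusted p under 0.05, and the log2 changes ran from -0.26 to 0.36 (median -0.14). OsRR6 read 8.03, 7.32 and 10.7 at 2 days and 7.26, 7.83 and 7.43 at 4 days, with overlapping groups and a 95% interval from -0.69 to 0.38. OsRR5 overlapped likewise, at 3.46, 5.14 and 8.15 against 4.8, 4.55 and 3.73. OsRR1 had a log2 change of 0.36 and OsRR9 of -0.23. Of 15 genes for cytokinin breakdown, activation, synthesis and reception 0 were called, and 1 had an unadjusted p under 0.05 (median -0.09). It was LOGL7, of a family of cytokinin-activating enzymes, with a log2 change of 0.49 at levels under 0.35; LOGL3 followed with 0.56.

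Among auxin genes 0 of 25 Aux/IAA repressors were called and 1 higher had an unadjusted p under 0.05 (median 0.09), with IAA8 at a log2 change of 0.57 (unadjusted p = 0.0244) and IAA2 at 0.67 (unadjusted p = 0.0770). Of 33 other auxin genes 0 were called, and 4 higher and 0 lower had an unadjusted p under 0.05 (median 0.08). ARF2 (LOC4325895), an auxin response factor also named OsETTIN2, read 3.16, 3.21 and 3.19 at 2 days and 4.98, 5.53 and 4.77 at 4 days. The arrays of each group lay close together and the groups did not overlap. With limma's SE, which draws on the spread in all groups, the log2 change of 0.69 (95% interval 0.37 to 1.003) had an adjusted p of 0.632. A separate probe set of ARF2 gave 0.62. ARF3, of the same family, read 4.91, 3.92 and 4.22 at 2 days and 6.67, 5.66 and 5.61 at 4 days, also without overlap (log2 0.47, 95% interval 0.12 to 0.83).

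Of 4 gibberellin genes 0 were called and 0 had an unadjusted p under 0.05; OsKAO, an enzyme of gibberellin synthesis, had a log2 change of 0.24, and LOC4329775, listed as both GID2 and GF14E, of -0.21. Of 20 abscisic acid genes 0 were called and 2 higher had an unadjusted p under 0.05 (median 0.11), the phosphatase OsPP2C53 (0.33) and the kinase OsSAPK4 (0.34). Of 11 ethylene genes 0 were called and 2 higher had an unadjusted p under 0.05 (median -0.05), the receptors OsERS1 (0.35) and OsETR4 (0.68). OsERS1 read 7.62, 8.81 and 8.75 at 2 days and 9.53, 10.1 and 11.9 at 4 days.

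Jasmonate genes leaned lower without a call. Of 37 tested 0 were called, 30 had a log2 change below 0 and 7 above, 1 higher and 2 lower had an unadjusted p under 0.05, and the median was -0.23. OsJAZ7 (LOC4347164), a repressor of jasmonate signalling, read 5.02, 9.66 and 8.44 at 2 days and 4.03, 4.94 and 3.76 at 4 days, without overlap (log2 -0.80, 95% interval -1.48 to -0.12). The lipoxygenase LOX1.1 had a log2 change of -0.98, but its 2 day arrays read 0.247, 0.720 and 0.175, and without the arrays with excess poly(A) control the change was -0.26.

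Of 13 pathogenesis-related proteins and chitinases, which act in defence, 0 were called and 12 lay below 0, with 3 lower and 0 higher at an unadjusted p under 0.05. Their median of -0.39 was the lowest of the lists. The chitinase OsChia1a read 10.4, 6.01 and 4.99 at 2 days and 2.71, 6.06 and 2.98 at 4 days, with overlapping groups (log2 -0.89, 95% interval -1.72 to -0.06). The chitinase OsChia2a (LOC4349267) had log2 changes of -1.13 and -0.89 on its 2 probe sets. Of 16 genes of phytoalexin synthesis, which makes antimicrobial diterpenes, 0 were called, and 3 lower and 0 higher had an unadjusted p under 0.05 (median -0.18). OsMAS (LOC4335093), momilactone A synthase, read 0.546, 0.578 and 0.504 at 2 days and 0.188, 0.386 and 0.229 at 4 days, without overlap (log2 -0.94, 95% interval -1.66 to -0.23). OsCPS2 (LOC9266189), a diterpene cyclase of phytoalexin synthesis, read 0.448, 0.195 and 0.574 at 2 days and 0.108, 0.232 and 0.151 at 4 days (log2 -0.99, adjusted p = 0.9999). Replicate 2 of 2 days was its lowest array at that time, and without that array the log2 change was -1.49 and passed the threshold (adjusted p = 0.0484).

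Of 6 WRKY factors, many of which act in defence, 0 were called and 0 had an unadjusted p under 0.05 (median -0.30), with OsWRKY76 at -0.80 and OsWRKY24 at -0.52. The stress-linked MYB factor OsMyb4 (LOC4336407) is not on this list and was likewise picked after the values were seen. It read 2.28, 2.02 and 2.42 at 2 days and 1.20, 1.35 and 1.21 at 4 days on 1 probe set (log2 -0.81, 95% interval -1.43 to -0.20), while its other probe set gave -0.22. Of 8 NAC factors 0 were called and 0 had an unadjusted p under 0.05 (median -0.09), led by NAC010 (-0.37) and OsNAC3 (-0.26). Of 12 ERF and DREB factors 0 were called and 1 higher had an unadjusted p under 0.05 (median -0.04), namely AP25 (0.66), followed by AP2-1 (-0.41). The 6 glutathione S-transferases had 0 called and 0 at an unadjusted p under 0.05 (median -0.13), with GST-I at -0.30 and GST1 at 0.35.

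Of 46 heat shock factors and chaperones 0 were called, with 1 higher and 1 lower at an unadjusted p under 0.05 (median 0.08). CLPB1 (LOC4339343), a chaperone that frees aggregated proteins, read 1.24, 0.8285 and 1.06 at 2 days and 2.20, 1.60 and 1.76 at 4 days, without overlap (log2 0.79, 95% interval 0.24 to 1.35). On 1 probe set the heat shock factor gene OsHsf-25 read 7.80, 8.88 and 8.10 and then 5.18, 5.75 and 6.10, also without overlap and in the opposite direction (log2 -0.53, 95% interval -1.03 to -0.03), while its other tested probe set gave a log2 change of 0.205.

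Genes of growth and division gave no call. Of 65 cyclins, cyclin-dependent kinases and kinesins 0 were called, 1 lower and 0 higher had an unadjusted p under 0.05, and the median was -0.06. The kinesin KIN14A had a log2 change of -0.36 (95% interval -0.66 to -0.07) and the B-type cyclin CYCB1-3 of -0.43. Of 25 DNA replication genes 0 were called and 0 had an unadjusted p under 0.05, although 21 lay below 0 (median -0.16). OsMCM8 was at -0.32 and OsORC3, of the origin recognition complex, at -0.22. Of 22 genes of the cytosolic ribosome 0 were called and 0 had an unadjusted p under 0.05, with 21 below 0 and log2 changes from -0.25 to 0.00 (median -0.11), led by RPS26 (-0.25) and RPS3A (-0.17).

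Photosynthesis genes gave no call at this step. Of 7 genes of the photosystems and light harvesting 0 were called and 0 had an unadjusted p under 0.05 (median 0.22, or -0.02 without the arrays with excess poly(A) control). The photosystem I subunit OsPSAG had a log2 change of 0.39, and PETE, the electron carrier plastocyanin, of 0.30, from 0.833, 0.834 and 0.927 at 2 days to 0.786, 1.01 and 1.57 at 4 days, with overlap. Of 8 genes of carbon fixation and chlorophyll synthesis 0 were called and 0 had an unadjusted p under 0.05 (median -0.02), with OsrbcS, the small subunit of Rubisco, at 0.30 (0.02 and -0.15 on its other probe sets) and CHLH, a subunit of magnesium chelatase, at 0.34. Of 6 clock genes 0 were called and 2 higher had an unadjusted p under 0.05 (median 0.34). OsCCA1, a morning-phased clock factor, had a log2 change of 0.48 (95% interval 0.09 to 0.87), and OsPRR37 of 0.38 on 1 probe set and -0.10 on the other. The hour of collection is not given in the labels, so a difference in time of day was not tested.

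Transport and wall genes gave no call either. The aquaporin OsPIP1;2 (LOC9270874), a plasma membrane water channel, read 5.93, 3.75 and 2.94 at 2 days and 7.26, 6.27 and 10.9 at 4 days, without overlap, and the log2 change of 0.97 (95% interval 0.45 to 1.49) was not called. It was 0.71 without replicate 3 of 2 days and 1.29 without replicate 1. OsPIP2;6 had a log2 change of 0.57 (95% interval 0.04 to 1.1). Of the 24 aquaporins 0 were called, with 2 higher and 1 lower at an unadjusted p under 0.05 (median 0.23). Of 35 genes for sugar transport and starch 0 were called and 2 lower had an unadjusted p under 0.05 (median 0.04). OsMST3 (LOC4342198), a monosaccharide transporter, read 1.04, 1.71 and 0.835 at 2 days and 0.284, 0.566 and 0.604 at 4 days, without overlap (log2 -1.22, 95% interval -2.34 to -0.09). The sucrose synthase gene OsSUS1 read 25.7, 39.4 and 28.4 and then 20.4, 25.4 and 20.4 (log2 -0.41). The amylase AMY1.2, at the upper end of the list with a log2 change of 1.73, had its high value on replicate 1 of 4 days, which read 18.6 beside 1.51 and 1.17 on the other 4 day arrays (95% interval -0.88 to 4.33).

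Of 68 mineral transport genes 0 were called, with 0 higher and 3 lower at an unadjusted p under 0.05 (median 0.02), among them the potassium transporter OsHAK16 (-0.60) and the ammonium transporter OsAMT1 (-0.51). All 6 genes of low-oxygen enzymes and hemoglobins lay below 0, 0 were called and 0 had an unadjusted p under 0.05 (median -0.14). Adh2, an alcohol dehydrogenase, read 7.12, 13.7 and 4.56 at 2 days and 3.18, 3.45 and 4.94 at 4 days, with overlap (log2 -1.01, 95% interval -2.12 to 0.11), and the pyruvate decarboxylase PDC of LOC4332519 was at -0.16.

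Of 26 expansins and xyloglucan enzymes, which loosen the wall, 0 were called and 1 higher had an unadjusted p under 0.05 (median 0.06), namely OsEXPL4 (0.42), followed by OsEXPA6 (0.41). Of 37 genes of the cellulose synthase family and GH9 glucanases 0 were called and 0 had an unadjusted p under 0.05 (median 0.02), with CSLC7 at -0.38 and OsCesA9 at 0.35. Of 23 genes of lignin synthesis and laccases 0 were called and 1 lower had an unadjusted p under 0.05 (median -0.08). This was OsCCR1 (LOC4331085), a cinnamoyl-CoA reductase, which read 5.87, 4.31 and 3.81 at 2 days and 3.05, 2.62 and 3.14 at 4 days, without overlap (log2 -0.66, 95% interval -1.10 to -0.21). Its mean was 16.6 ± 5.73 in growing callus and 1.28 ± 0.0674 at 6 days (SD, n = 3 each). OsCAD6 followed at -0.57.

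Of 10 genes for seed storage, late embryogenesis and dehydrins 0 were called and 0 had an unadjusted p under 0.05 (median 0.17). OsPM19L1 spread widely, from 7.55 to 18.7 at 2 days and from 11.1 to 42.5 at 4 days (log2 0.68), and the glutelin GLUA-2 was at 0.14 on 1 probe set and -0.08 on the other. The 7 metallothioneins had 0 called and 0 at an unadjusted p under 0.05 (median -0.22), with OsMT-1 at -0.58 and OsMT-I-2b at -0.29, while another of its probe sets gave 0.11. Of 5 lipid transfer proteins 0 were called and 1 higher had an unadjusted p under 0.05 (median 0.17). LTP110-A (LOC4349601) had a log2 change of 0.88, carried by replicate 3 of 4 days at 4.54 beside 1.69 and 1.81, and OsLTPL1 was at 0.17.

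Because the call left 1 named gene, the largest changes among named genes were also taken without asking for a call, among those whose groups did not overlap and whose higher group averaged at least 0.5. This choice was made after the values were seen, and non-overlap was a condition, so it is no result. Of the 10 genes on the higher side OsYAB2 was called and the other 9 were not. LTP110-A, OsER2 and CLPB1, given above, were among them. After OsYAB2, PCF7, OsPIP1;2 and OsYAB7 came OsCOPT3 (LOC4324611), a copper transporter, which read 0.880, 0.689 and 1.16 at 2 days and 2.03, 1.41 and 1.81 at 4 days (log2 0.92, 95% interval 0.43 to 1.41). The germin-like gene OsGER5 (0.89) and the silicon transporter OsNIP2;1 (0.71) had 2 day arrays that differed widely, from 0.281 to 0.714 and from 0.436 to 0.901. OsNIP2;1 is one of the root markers, and its mean of 1.08 at 4 days stood beside 149 in root.

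On the lower side OSE727A (LOC9271230), which the annotation also names as the trypsin inhibitor RBTI, had the largest change. It read 11.6, 22.8 and 9.80 at 2 days and 4.29, 4.23 and 8.90 at 4 days (log2 -1.30, 95% interval -2.47 to -0.13). The gene pinA (LOC9268662) lies next to it on chromosome 1 with 0 genes between them in the RefSeq table, and it read 12.4, 32.8 and 17.0 at 2 days and 7.44, 7.24 and 12.3 at 4 days (log2 -1.06). For both genes replicate 2 of 2 days was the highest array and replicate 3 of 4 days was close to the lowest 2 day array. The transporter OsABCG48 (-0.88) and OsTPP1 (-0.68), a trehalose phosphatase, completed the list with OsMST3, OsChia2a, OsMAS, OsMyb4, OsJAZ7 and OsCCR1 above.

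**Figure D4:**
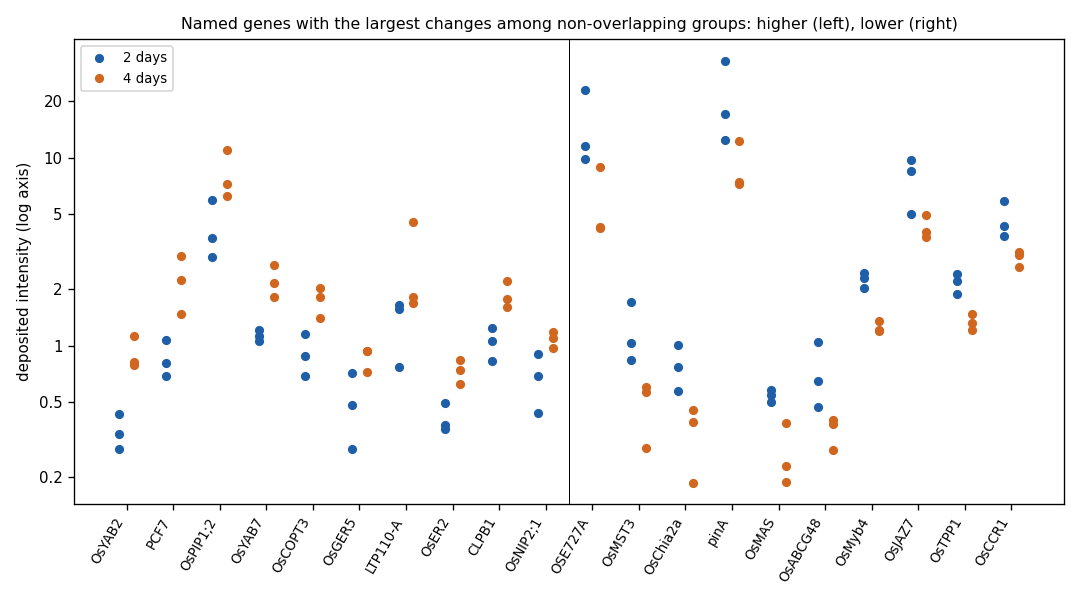
Deposited intensity (log axis) on each array of 2 days (blue) and 4 days (orange) for the 10 named genes with the largest log2 change on the higher side (left) and the lower side (right) among genes whose groups do not overlap. OsYAB2 is the called gene among the 20, and the 2 day arrays of pinA spread from 12.4 to 32.8.

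Genes known only by a locus number included larger changes. LOC4340325 read 3.52, 6.22 and 1.51 at 2 days and 11.9, 16.3 and 15.8 at 4 days, a log2 change of 2.19 (95% interval 0.93 to 3.45, unadjusted p = 0.00157), but a separate probe set of that gene gave -0.16. LOC4350462 read 0.329, 0.362 and 0.469 and then 1.79, 1.13 and 0.941 (log2 1.63). On the lower side LOC4345030 had a log2 change of -1.99 and LOC4337483 of -1.70, both to 4 day means of at most 0.213. LOC4327032 came nearest to a call, at 0.377, 0.360 and 0.433 against 1.29, 1.004 and 0.670 (log2 1.26, adjusted p = 0.101), and it was called without replicate 3 of 4 days (adjusted p = 0.0346).

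The step from 2 to 4 days was compared with the other steps of the culture, after the counts were known and as a description, since neighbouring steps share arrays. From growing callus to 2 days the calls were 613 higher and 902 lower (together 4.07%), from 4 to 6 days 580 and 15 (together 1.6%), and from 6 to 8 days 2 and 0 (together 0.00537%). The SD of the log2 changes over all probe sets was 0.467 from growing callus to 2 days, 0.210 from 2 to 4 days, 0.378 from 4 to 6 days and 0.252 from 6 to 8 days. The step from 2 to 4 days had the narrowest spread of the 4.

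**Figure D5:**
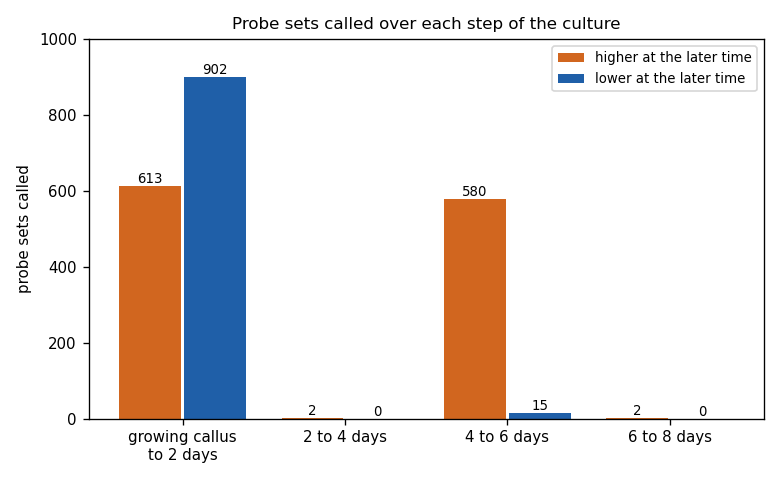
Number of probe sets called higher (orange) and lower (blue) at the later time of each step, of 37218 tested. From 2 to 4 days 2 were higher and 0 lower, against 613 and 902 over the step before and 580 and 15 over the step after.

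The changes from 2 to 4 and from 6 to 8 days share no array, so their difference was tested in the same fit. It was called for 1 probe set (0.00269%), and 1183 (3.18%) had an unadjusted p under 0.05, again a share below 0.05. The count was 0 without quantile normalisation, with the filter on 6 arrays, with 12 or 15 arrays in the fit, and without replicate 1 or 2 of 4 days, replicate 2 of 6 days or replicate 1 of 8 days, and it was 63 without replicate 2 of 8 days. It was 2 without replicate 3 of 2 days or replicate 1 of 6 days. The called probe set has no gene in the annotation used, and it had a log2 change of 0.09 from 2 to 4 days and of 1.74 from 6 to 8 days (difference 1.65, limma's adjusted p = 0.0163), and its levels of 0.0957 to 0.171 at 2 days and 0.124 to 0.127 at 4 days lay below the array medians. For OsYAB2 the later change was 0.37 and for LOC4330898 0.30, and neither difference between the steps was called (adjusted p = 0.9999 for both).

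Of the 45 probe sets at least 2-fold higher at 4 days, whatever their p, 38 (84.4%) were also higher at 8 than at 6 days, on arrays that the comparison did not use, beside 46.1% of all probe sets tested. Of the 58 at least 2-fold lower, 29 (50%) were. The median later change was 0.32 for the former, -0.01 for the latter and -0.02 for all tested. In the organs, 24.4% of the 45 and 13.8% of the 58 stood higher in young leaf than in root, beside 39.5% of all tested. In shoot against root the shares were 35.6% and 31%, beside 39.9% of all tested. These organ shares compared group means of deposited values, while the later changes came from the quantile-normalised fit. Root had the highest array medians of the series, 0.346 to 0.355, which may lean low-level probe sets to root.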

How the data were processed

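RNA from 8 groups of rice samples was measured on 25 Affymetrix Rice Genome Arrays, and 500 ng of total RNA entered each labelling, per the labels' protocols. The authors' deposited table holds 1 linear intensity per probe set and array, scaled so that the 75th percentile of each array is 1. Per the submitters' processing notes GCOS 1.3 was used, while the summary and background steps are not given in the sources used here. Of 57381 probe sets 187 controls were left out, and the 37218 probe sets exceeding an array's median on 3 or more arrays were tested. Filtering on the 6 arrays alone would keep 29082.

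To each value 0.0274 was added (10% of the median of all values, 0.274) and the log2 was taken. Array medians differed 1.61-fold, more than the limit of 1.5, and quantile normalisation was applied. A linear model over all arrays, with 1 mean for each group and no covariate, was fitted in limma 3.58.1 under R 4.3.3 and had 17 residual and 5.41 prior degrees of freedom. The interval level was 95%. The fit was tested on simulated data with known changes.

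The annotation gave 1 gene to 22436 probe sets and several to 95. All 17905 single genes were found in the RefSeq table (ASM3414082v1), 2458 with a name other than a locus number, and 16836 genes, 2349 with a name, had a tested probe set. Lists were matched by symbol or synonym with 1 probe set a gene, the one of highest mean level. Named are called genes whose groups do not overlap and whose higher mean is at least 0.5 (10 a direction, 2 for locus numbers), and the 2 members of smallest adjusted p in each list; sets without the call, the step counts and AMY1.2 were added after values were seen. The comparison, members and lists were chosen with earlier results of these data known. The lists were revised once the gene annotation was at hand: wrong synonym matches were removed, the abscisic acid list was narrowed, 1 wall list was split and a peroxidase list that matched few genes was dropped. Overlap was judged on deposited values, and on quantile-normalised values 5.10% of probe sets were apart on the higher side and 5.34% on the lower. Promoter sequences were not used here, so a planned motif search was not run.

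Same-numbered arrays of 2 and 4 days had correlations of their deviations of 0.224, 0.393 and 0.0754. The last lies under 0.1, which every pair had to exceed, so the numbers were not taken as pairs. Differently numbered arrays ran from -0.36 to 0.209, and all of these but the highest were negative. The 2 calls therefore rest on a fit without pairing by number. With the number as a block 0 were called (limma's adjusted p = 0.0965 for both genes).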

Additional observations from a re-analysis of the deposited data

Results flagged for a closer look

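For a probe set with no gene in the annotation used, the change from 6 to 8 days exceeded the change from 2 to 4 days by 1.65 on the log2 scale in a test of that difference, the single call of that test. The number called went from 1 to 0 under several alternatives, among them the fit without quantile normalisation, and to 63 without replicate 2 of 8 days. The level went from 0.127 ± 0.0394 at 2 days to 0.126 ± 0.00138 at 4 days, and from 0.475 ± 0.0666 at 6 days to 1.66 ± 0.259 at 8 days (SD, n = 3 each).

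Control probe sets outside the comparison carried a high signal on 3 arrays. The median intensity of the poly(A) control probe sets was 233 on growing callus replicate 2, 238 on 2 days replicate 2 and 244 on 4 days replicate 2, and at most 1.83 on any other array. The labels of these arrays state the excess. Its part in the results was not tested beyond leaving the arrays out.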

How the results depend on the processing

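The count of 2 called probe sets for 4 against 2 days went to 1 (OsYAB2) with the larger pseudocount (50% of the median) and to 0 without quantile normalisation, with the 6 arrays of 2 and 4 days alone, with the 15 callus arrays alone and without the 3 arrays with excess poly(A) control. It was 2, with both genes kept, without a filter, with the filter on 6 arrays, with a trended prior variance and by adjusted p alone. Leaving out each replicate of 2 or 4 days gave 0 to 2. The count at an unadjusted p under 0.05 was 1512 of 29082 tested with the 6 arrays alone, where 0 were called by limma. In the main fit it was 1135 of 37218. Leaving out an array of 6 or 8 days, an alternative chosen after seeing the data, gave 0 to 3: 0 without replicate 1 of either time, and 3, with LOC4327032 added, without replicate 2 or 3 of 8 days. The adjusted p of both genes then ran from 0.0185 to 0.0595. With the 12 arrays of 2 to 8 days 0 were called.

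The count for the difference between the steps, 1, went to 0 without quantile normalisation, with the filter on 6 arrays, with the 12 arrays of 2 to 8 days and with the 15 callus arrays. Leaving out each replicate gave 0 to 63, and the 63 came without replicate 2 of 8 days; it was 2 without replicate 3 of 2 days or replicate 1 of 6 days, and 0 without replicate 1 or 2 of 4 days, replicate 2 of 6 days or replicate 1 of 8 days. The cause was not tested.

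With the replicate number as a replicate block, 0 probe sets were called for 4 against 2 days (adjusted p = 0.0965 for both genes) and 3 for the difference between the steps. Of the 3 same-numbered pairs 2 had deviations that correlated above 0.1, and replicate 3 of 2 days correlated best with replicate 1 of 4 days, at 0.209.

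Over the alternatives other than the 12 arrays and the arrays of 6 or 8 days left out, 1449 log2 changes of 99 named probe sets were compared. Of these 1395 stayed on their side of the threshold and within the spread, 31 of uncalled genes moved further than that, 21 values of the 2 called genes lost the call and 2 values gained one (OsCPS2 without replicate 2 of 2 days and LOC4327032 without replicate 3 of 4 days). No called value changed sign, while 4 values of uncalled genes and 27 of 555 list medians did. Without quantile normalisation the median log2 change of all tested was -0.03. Levels near or below the array medians limit the log2 changes of OSH1, OsMADS16 and OsCPS2.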
